A study of Mus musculus with 6 samples.

Results

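Nuclear receptors are transcription factors that bind DNA through a pair of zinc fingers and are switched by small lipophilic ligands such as oxysterols, bile acids, fatty acids, retinoids, thyroid hormone and steroids. Many pair with a retinoid X receptor (RXR), and all of them act through coregulators, which include the NCOA coactivators and the NCOR corepressors. In liver they set the expression of genes for lipid, bile acid, glucose and drug metabolism, with HNF4A as a main determinant of hepatocyte identity. The genes described here are 34 such genes, 30 receptors and 4 coregulators, out of 25904 genes in the deposited count table, taken by gene symbol.

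Liver RNA came from 2 groups of C57BL/6J mice, 3 samples heterozygous for Ptprd (Ptprd+/-, here Het) and 3 wild-type samples (Ptprd+/+, here WT). Ptprd encodes a receptor-type protein tyrosine phosphatase, and the series title links its impairment to metabolic syndrome of the liver. The labels name no treatment, and the sources used here do not give the kind of Ptprd allele, the sex or age of the mice or the hour of sampling. Polyadenylated RNA was sequenced from strand-specific libraries made from 145 ng of total RNA, and nothing in the labels says whether each sample was a separate mouse, so p-values may measure technical spread only.

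Total counts lay between 38918379 and 72954187 in Het and between 37924266 and 48526395 in WT. Ptprd itself had 54.1, 78.1 and 63.4 CPM (reads scaled to library size) in Het 1, Het 2 and Het 3, against 128, 127 and 132 CPM in WT 1, WT 2 and WT 3, so each library matched its genotype label. Clock genes set 2 Het libraries apart. Dbp, a clock output gene, stood at 13.5, 129 and 122 CPM in the Het libraries, against 18.9, 29.6 and 14.4 CPM in the WT libraries. The 10 hepatocyte markers, Alb among them, summed to 158300 to 191000 CPM in Het livers, against 132800 to 158700 CPM in WT livers. Of 6 listed adipocyte markers 5 were among the 25904 counted genes, and of 9 pancreas and muscle markers 6. The markers of the other cell lists were all among them. Every counted gene had reads in at least 1 library, so none of these could stand at 0 throughout. The lymphocyte sum was 24.2 to 32.0 CPM in Het livers, against 38.2 to 68.1 CPM in WT livers. Much of it was 1 gene, Ighm, at 16.2, 13.7 and 8.48 CPM in Het, against 44.4, 21.7 and 23.2 CPM in WT. Of the 9 tested lymphocyte markers 6 had a log2 fold change below 0 and 3 above. Their median deviation overlapped between genotypes, at -0.08, -0.52 and 0.05 in Het, against -0.03, 0.35 and -0.04 in WT. Kupffer cell and macrophage markers summed to 467 to 817 CPM in Het livers, against 595 to 921 CPM in WT livers. The part of these differences, and of the clock genes, in the values below was not tested. In whole liver, fewer cells of a type and less RNA per cell cannot be told apart.

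The feature that makes these receptors one family is the first zinc finger, whose recognition helix, the P-box, reads the AGGTCA half-site or a related one. The 24 bases that code for this stretch were found in 29 of the 30 receptor members in GENCODE transcripts of build mm10, and are shown for 8 that represent the main branches. Capitals mark the codons of P-box residues that differ between some of the branches. These codons give the same residues in Rxra, Nr1i3, Nr1h3 and Nr2c2.
Rxra, chr2:27741787-27741810, plus strand, exon 4: tgtGAGGGCtgcaagGGCttcttc
Nr1i3, chr1:171214460-171214483, plus strand, exon 2: tgtGAGGGCtgcaagGGCttcttc
Nr1h3, chr2:91191922-91191945, minus strand, exon 4: tgcGAGGGCtgcaagGGAttcttc
Nr2c2, chr6:92154358-92154381, plus strand, exon 6: tgtGAAGGTtgcaaaGGTttcttc
Hnf4a, chr2:163551690-163551713, plus strand, exon 2: tgtGACGGCtgcaagGGGttcttc
Nr2f2, chr7:70360021-70360044, minus strand, exon 1: tgcGAGGGCtgcaagAGCttcttc
Esr1, chr10:4746768-4746791, plus strand, exon 3: tgcGAAGGCtgcaagGCTttcttt
Nr3c2, chr8:77085627-77085650, plus strand, exon 2: tgcGGCAGCtgcaaaGTCttcttc
The stretch of Nr1i3 was identical to that of Rxra, its partner, and so was that of Nr4a1. The other receptors compared differed from Rxra by up to 6 of the 24 bases, and some of these changes leave the residue the same. Nr3c2, of the steroid receptor branch, was among those with 6.

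Levels spanned 1380-fold among the tested members, while with all libraries no member differed between genotypes by as much as 1.5-fold. On the scale of CPM per kb of exon, which allows levels of genes to be compared, Hnf4a stood highest at a mean of 149 over the 6 libraries. Nr1i3, the xenobiotic receptor CAR, followed at 114, and Rxra at 83.9. These 3 genes held 61.3% of the summed level of the 34. Nr1h3, the oxysterol receptor LXR alpha, stood at 49.7 and Nr1i2, the xenobiotic receptor PXR, at 47.8, then Nr2f6, an orphan receptor of the COUP branch, at 25.1 and Nr1h2, LXR beta, at 11.6. The places of Nr1i3 and Nr2f6 are uncertain, since 3304 of the 4414 exon bases of Nr1i3 lie opposite exons of Tomm40l and 1622 of the 2983 of Nr2f6 opposite exons of Ocel1, and the strand setting of the counting is not known. Another 20 members lay between 1 and 10, and 7 under 1. Vdr, the vitamin D receptor, had 1 to 4 reads in every library and was too low to test, which left 33 tested members. Nr4a2, an immediate early orphan receptor, was the lowest tested, at 0.108. Of the 33 neighbouring pairs in this order, 26 had overlapping library ranges, among them Hnf4a and Nr1i3, and Nr1h3 and Nr1i2. The ranges of Rxra and Nr1h3 did not overlap.

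**Figure D1:**
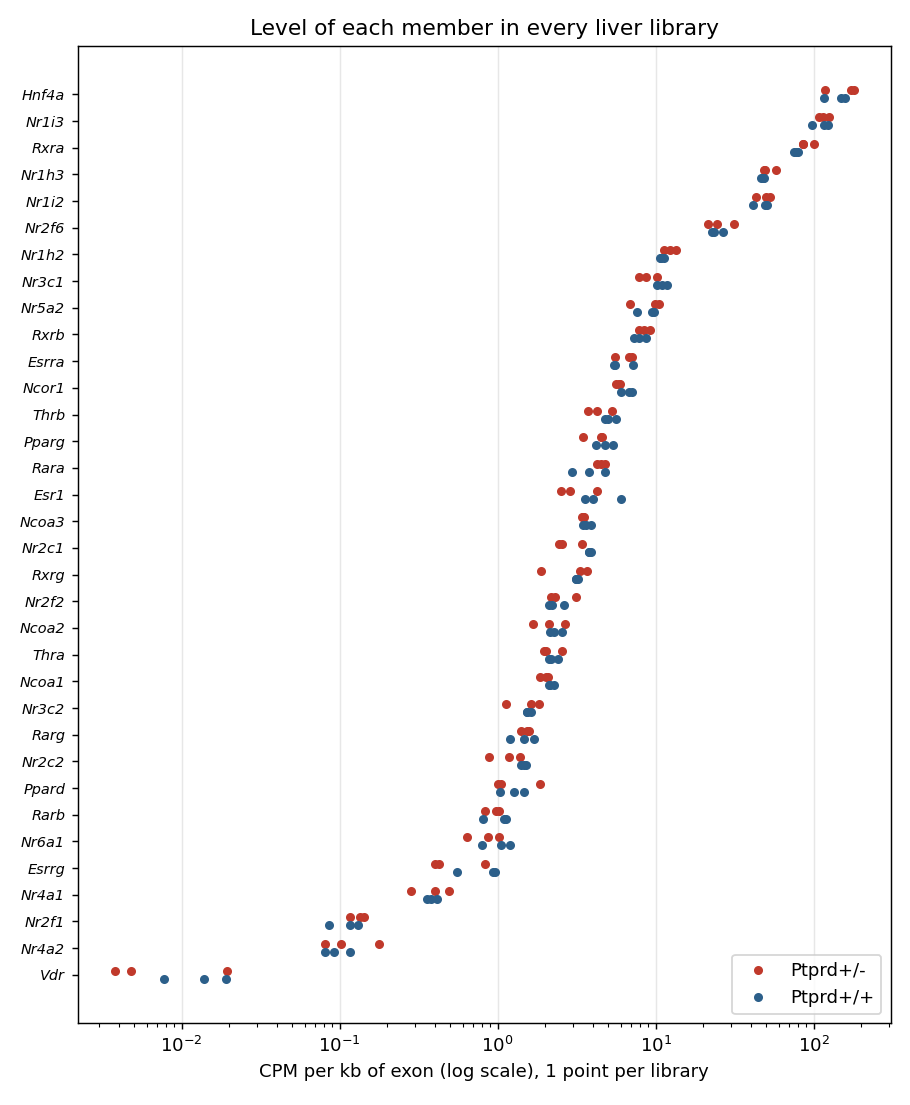
Level of each of the 34 members in CPM per kb of exon (log scale), 1 point per library, with Ptprd+/- in red and Ptprd+/+ in blue. Hnf4a, Nr1i3 and Rxra stand at the top with means of 149, 114 and 83.9, Vdr stands at the bottom, and the genotypes lie close together beside the span between genes.

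No member passed the test between genotypes. With edgeR's quasi-likelihood test, adjusted over all 14606 tested genes, 0 of 33 members had an adjusted p under 0.05, where 0% of all tested genes did, and the smallest adjusted p of a member was 0.677. At an unadjusted p under 0.05 stood 2 members (6.06%), both lower in Het, against 7.15% of all tested genes and 3.77% for the lower side and 3.39% for the higher side. DESeq2 called 0 members and 0.438% of all tested genes, and limma-voom 0 members, with 3 and 2 members at an unadjusted p under 0.05. A fold of 1.5 or more either way was reached by 0 members and by 5.62% of tested genes. The members' median log2 fold change was 0.01, and 16 of 33 (48.5%) lay below 0, against 50.8% of tested genes. The shares at an unadjusted p under 0.05 and below 0 were thus near those of all tested genes.

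In 6 of the 33 tested members (18.2%) the genotypes did not overlap, against 13.9% of all tested genes. Of these 4 were lower in Het in all libraries (12.1%, against 6.72% of tested genes) and 2 higher (6.06%, against 7.15%). They were Nr2c1, Nr2c2, Ncor1 and Ncoa1 on the lower side, and Rxra and Nr1h3 on the higher side. An exact two-sided permutation test gave p = 0.1 for each of the 6, the smallest that 3 against 3 libraries allow.

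The testicular receptors TR2 and TR4, encoded by Nr2c1 and Nr2c2, are paralogous orphan receptors that bind repeats of AGGTCA. Nr2c1 had 11.8, 15.7 and 11.3 CPM in Het, against 17.9, 17.6 and 17.5 CPM in WT. The WT libraries lay close together and the Het libraries below them, with Het 2 the nearest. The log2 fold change was -0.45 (SE 0.14, 95% interval -0.77 to -0.13), or 1.37-fold lower in Het, with an edgeR unadjusted p of 0.0121 and an adjusted p of 0.677. It ranged from -0.61 to -0.36 over the alternatives tried. Nr2c2 had 13.2, 20.6 and 17.7 CPM in Het, against 21.1, 21.9 and 22.6 CPM in WT. Het 1 was lowest, and Het 2 lay just under the lowest WT library. Its log2 fold change was -0.35 (SE 0.16), with an edgeR adjusted p of 0.694, and without Het 1 it was -0.20. Exons of Nr2c2 share 4590 bases with Mrps25 on the opposite strand, and the sources used here do not state the strand setting of the counting, so its level is uncertain.

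RXR alpha, encoded by Rxra, is the partner with which LXR, PPAR, CAR, PXR and the retinoic acid, thyroid hormone and vitamin D receptors bind DNA. Rxra had 468, 468 and 549 CPM in Het, against 412, 433 and 420 CPM in WT. All Het libraries lay above WT, with Het 3 the highest. The log2 fold change was 0.23 (SE 0.11, 95% interval -0.02 to 0.48), with an edgeR adjusted p of 0.698, and it lay between 0.15 and 0.27 over the alternatives. The other RXR genes overlapped between genotypes. Rxrb, at 33.9 ± 2.91 CPM in Het and 31.5 ± 2.91 CPM in WT (SD, n = 3), had a log2 fold change of 0.10. Rxrg had 8.45, 7.66 and 4.31 CPM in Het, against 7.16, 7.40 and 7.23 CPM in WT, so that Het 3 was low while Het 1 and Het 2 stood above WT.

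The promoter of Rxra is shown because the data separated this receptor on the higher side and because one of its upstream windows carries 2 copies of the half-site read by the family. The window is the 250 bases before a RefSeq start inside the gene, and the window of its first start holds none. It is given in build GRCm38.p6, chr2:27709042-27709291, plus strand, with AGGTCA and its other-strand form TGACCT in capitals.
Rxra promoter: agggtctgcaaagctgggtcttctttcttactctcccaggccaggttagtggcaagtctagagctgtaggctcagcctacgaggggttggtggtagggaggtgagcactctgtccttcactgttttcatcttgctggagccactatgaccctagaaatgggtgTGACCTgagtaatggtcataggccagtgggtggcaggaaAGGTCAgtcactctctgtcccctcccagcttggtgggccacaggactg
RefSeq had windows for 30 of the 34 members, 50 windows in all. AGGTCA or TGACCT was in 8 of these 50, and in 14.0% of all 32851 windows of the table. The E-box CACGTG, bound by CLOCK and BMAL1, was in 3 of the 50 and in 6.02% of all windows. The D-box TTATGTAA or TTACATAA was in 0 of the 50 and in 0.819% of all. Both strands were read, and none of these motifs contains another. Nr3c1, Ncoa2, Ncoa3 and Thra had no window.

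The lipid and xenobiotic sensors had log2 fold changes between -0.19 and 0.18, with 5 of 6 above 0. Nr1h3 had 146, 122 and 123 CPM in Het, against 122, 117 and 120 CPM in WT. The Het libraries all lay above WT, but Het 2 and Het 3 only just, and Het 1 was the highest. Its log2 fold change was 0.13 (SE 0.10) with an edgeR adjusted p of 0.790, and 0.03 without Het 1. Nr1h2 had 45.2, 37.8 and 41.3 CPM in Het, against 35.8, 36.2 and 38.1 CPM in WT, and Het 2 lay within the WT range.

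CAR and PXR, the sensors of foreign compounds, did not separate. Nr1i3 had 478, 508 and 549 CPM in Het, against 430, 546 and 513 CPM in WT, with the lowest library in WT and the highest in Het. Its log2 fold change was 0.04, with a 95% interval from -0.24 to 0.33. The overlap with Tomm40l makes this value uncertain. Nr1i2 had 127, 136 and 110 CPM in Het, against 126, 105 and 129 CPM in WT, and its log2 fold change of 0.06 had a 95% interval from -0.22 to 0.34. Both intervals exclude a fold of 1.5 in either direction. Among the PPAR genes, Pparg, the adipogenic PPAR, had 13.4, 13.4 and 10.2 CPM in Het, against 15.8, 12.4 and 14.1 CPM in WT. Ppard had 14.0, 7.58 and 7.86 CPM in Het, against 10.98, 7.78 and 9.53 CPM in WT, with Het 1 above all other libraries.

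HNF4A and LRH-1 are the hepatocyte receptors of the set, and neither separated the genotypes. Hnf4a had 836, 570 and 865 CPM in Het, against 722, 560 and 768 CPM in WT. One library of each genotype, Het 2 and WT 2, stood low and close together, and the rest high. The log2 fold change was 0.15 (SE 0.19, 95% interval -0.29 to 0.58), with 0.32 without Het 2 and 0.03 without WT 2. Nr5a2, which encodes LRH-1, a receptor of bile acid and cholesterol genes, had 40.8, 61.6 and 58.1 CPM in Het, against 56.4, 57.8 and 44.9 CPM in WT, with Het 1 the lowest. The COUP genes Nr2f1, Nr2f2 and Nr2f6 had log2 fold changes of 0.24, 0.14 and 0.08. Nr6a1, the germ cell nuclear factor, had 9.38, 10.96 and 6.90 CPM in Het, against 11.29, 12.9 and 8.67 CPM in WT, with a library of each genotype low.

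**Figure D2:**
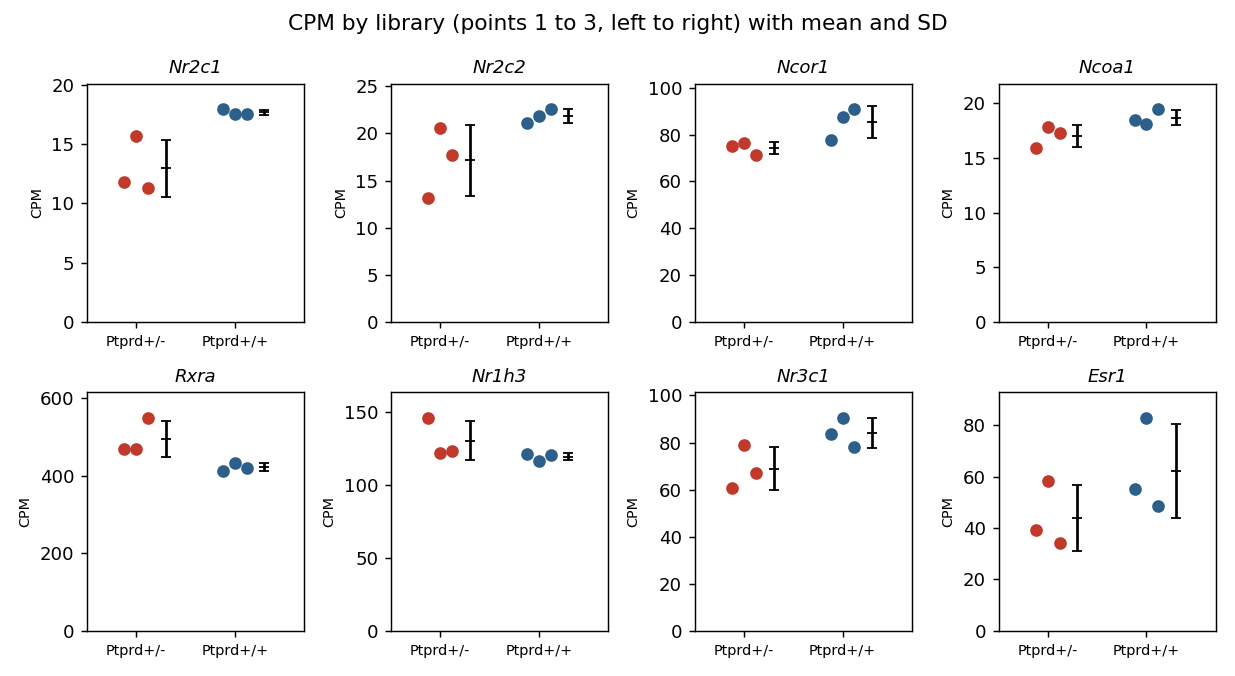
CPM of 8 members by library, Ptprd+/- left and Ptprd+/+ right, with the mean and SD beside each group. Nr2c1, Nr2c2, Ncor1 and Ncoa1 lie lower in all Ptprd+/- libraries, Rxra and Nr1h3 higher, and Nr3c1 and Esr1 overlap.

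Among the steroid and estrogen-related receptors 4 of 5 had a log2 fold change below 0, with a median of -0.29. Nr3c1, the glucocorticoid receptor, had 60.6, 78.8 and 67.2 CPM in Het, against 83.8, 90.4 and 78.0 CPM in WT. Het 1 and Het 3 were low, and Het 2 lay just above WT 3. Its log2 fold change was -0.29 (SE 0.12), with an edgeR unadjusted p of 0.0438 and an adjusted p of 0.694. Esr1, estrogen receptor alpha, varied 2.42-fold between libraries. It had 39.2, 58.4 and 34.3 CPM in Het, against 55.1, 82.8 and 48.7 CPM in WT. Het 2 lay inside the WT range, and WT 2 stood above all others. Its log2 fold change of -0.50 (SE 0.25) had an edgeR adjusted p of 0.708, and it was -0.76 without Het 2 and -0.23 without WT 2. Esrrg, an estrogen-related receptor of oxidative metabolism, had the lowest fold change of the set, -0.56 (SE 0.33, edgeR adjusted p 0.732), at 2.496, 5.15 and 2.66 CPM in Het, against 5.77, 5.98 and 3.43 CPM in WT. Het 2 again lay within the WT range, and without it the log2 fold change was -0.97. Esrra, at 28.4 ± 3.53 CPM in Het and 26.6 ± 4.36 CPM in WT, and Nr3c2, the mineralocorticoid receptor, at 9.90 ± 2.34 CPM in Het and 10.1 ± 0.320 CPM in WT (SD, n = 3), had log2 fold changes of 0.09 and -0.03.

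Receptors for retinoic acid and thyroid hormone overlapped between genotypes throughout. Thrb, the main thyroid hormone receptor of hepatocytes, had 27.7, 39.0 and 31.3 CPM in Het, against 41.7, 37.2 and 35.4 CPM in WT. Het 1 and Het 3 lay below WT, and Het 2 within it (log2 fold change -0.22, SE 0.14; -0.36 without Het 2 and -0.12 without Het 1). Rara had 19.7, 21.0 and 18.7 CPM in Het, against 20.8, 16.4 and 12.9 CPM in WT, where WT 3 was the lowest. Thra had a log2 fold change of -0.03, and its exons share 263 bases with the clock repressor gene Nr1d1 on the opposite strand. Nr1d1 had 17.6, 55.5 and 46.9 CPM in Het, against 9.49, 21.4 and 10.4 CPM in WT. Thra had 11.8, 9.30 and 9.04 CPM in Het, against 11.05, 9.77 and 9.99 CPM in WT, and its Het 2 and Het 3, where Nr1d1 was high, were its lowest libraries. Rarb and Rarg had log2 fold changes of -0.10 and 0.05. Exons of Rarb share 1793 bases with Top2b on the opposite strand. The NR4A genes, which are induced within minutes by many stimuli, were low, with Nr4a1 at 0.993 to 1.72 CPM in Het livers, against 1.26 to 1.45 CPM in WT livers.

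The 4 coregulators all had a log2 fold change below 0, between -0.20 and -0.09. All 4 lie in the longest quartile of genomic span, described below, where 68.2% of all tested genes lay below 0. Ncor1, a corepressor that brings histone deacetylase HDAC3 to unliganded receptors, had 75.1, 76.6 and 71.4 CPM in Het, against 77.8, 87.5 and 90.9 CPM in WT. The genotypes did not overlap, and WT 1 lay closest to Het. The log2 fold change was -0.20 (SE 0.10, 95% interval -0.42 to 0.02), or 1.15-fold lower in Het, with an edgeR adjusted p of 0.705. Ncoa1, the coactivator SRC-1, had 15.9, 17.8 and 17.3 CPM in Het, against 18.5, 18.1 and 19.4 CPM in WT. Its ranges were close, and the log2 fold change of -0.14 (SE 0.10) had an edgeR adjusted p of 0.765. Ncoa3, SRC-3, had the narrowest range of the members across libraries. It had 27.0, 27.2 and 27.6 CPM in Het, against 28.8, 27.5 and 30.6 CPM in WT. Ncoa2, SRC-2, had 26.1, 41.9 and 33.1 CPM in Het, against 35.8, 39.7 and 33.8 CPM in WT, and the Het libraries held both its lowest and its highest value.

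**Figure D3:**
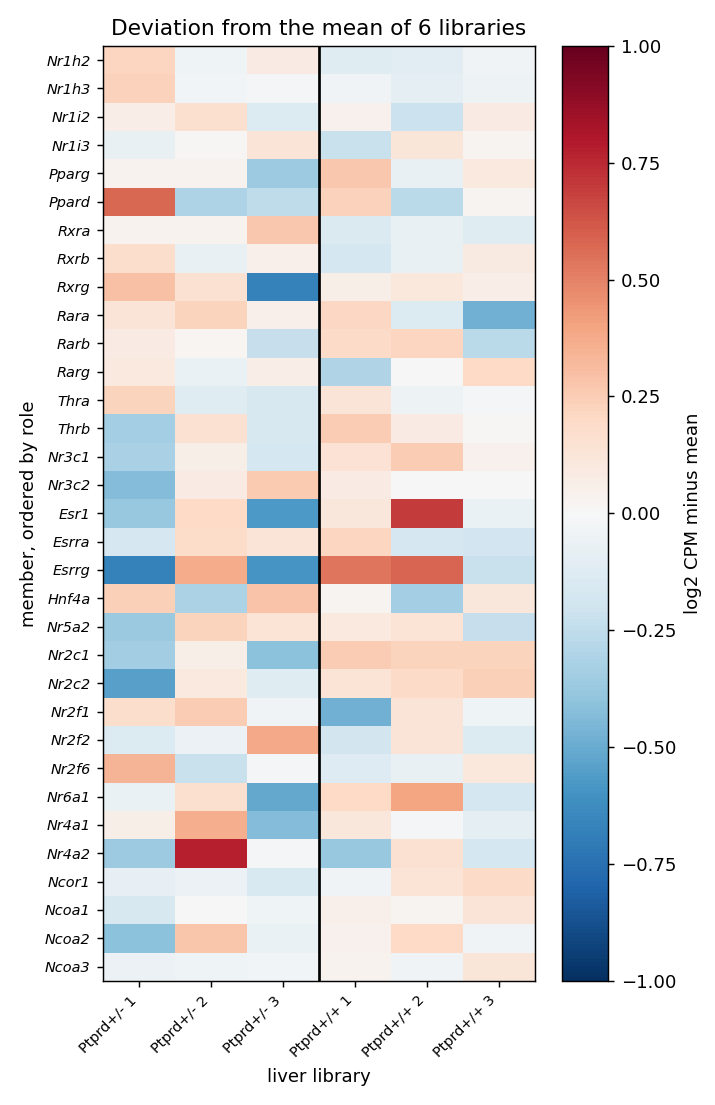
Deviation of log2 CPM from the mean of 6 libraries for the 33 tested members, ordered by role, with Ptprd+/- libraries left of the line and Ptprd+/+ right. Het 1 is the lowest library for 9 members, among them Nr2c2, Nr3c1 and Ncoa2, Het 3 and WT 1 for 8 each, and Het 2 for 2.

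Libraries of one genotype also differed from each other. Het 1 was the lowest library in 9 of the 33 tested members (27.3%), against 24.3% of all tested genes. Het 3 and WT 1 were the lowest in 8 each (24.2%, against 15.9% and 16.6% of tested genes), WT 2 and WT 3 in 3 each and Het 2 in 2. The median deviation of the members from their means was -0.06, 0.06 and -0.04 in Het 1, Het 2 and Het 3, and 0.06, 0.03 and 0.01 in WT 1, WT 2 and WT 3 on the log2 scale. Het 2 therefore stood with WT 1 at the high end. With the clock score as a covariate in edgeR 9 members (27.3%) had an unadjusted p under 0.05, where 14.1% of all tested genes did, and none an adjusted one. Without Het 2 and Het 3, the libraries of high Dbp, 11 members (33.3%) did, where 13.7% of tested genes did, again with none past the adjusted threshold, and the members' median log2 fold change was -0.07. That fit was added after seeing the data and gives the single remaining Het library the spread of the other group.

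**Figure D4:**
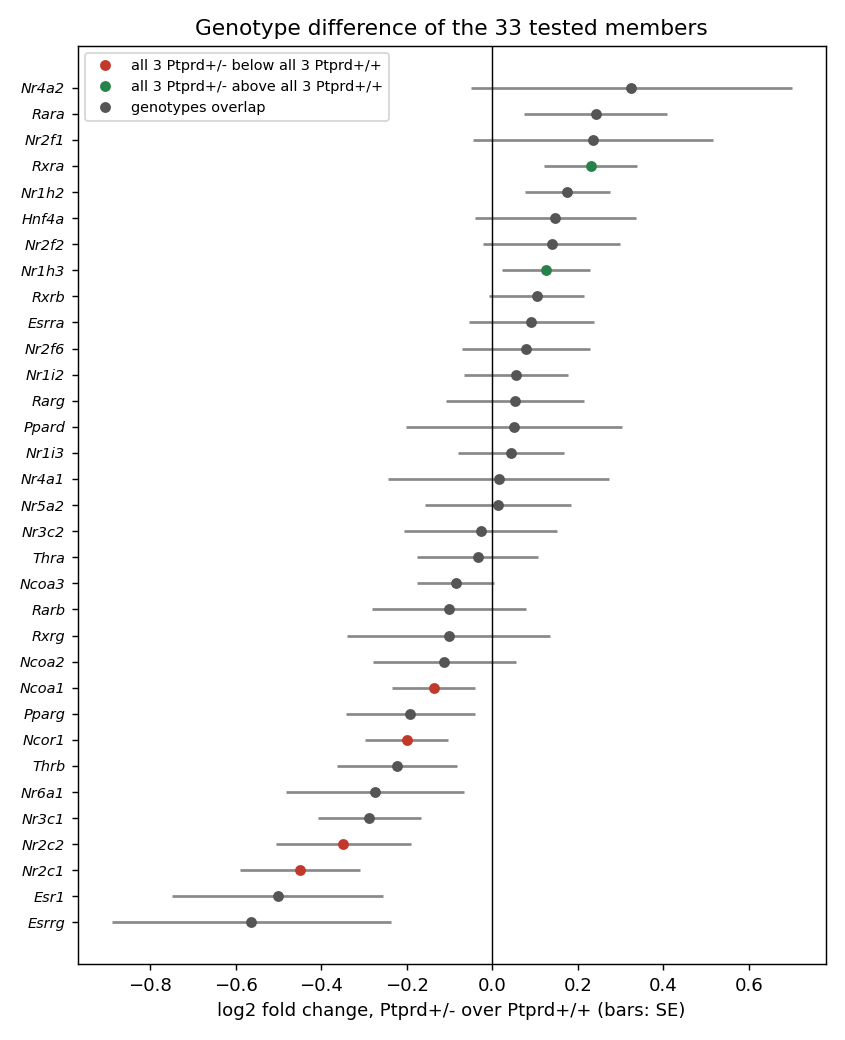
Log2 fold change of the 33 tested members, Ptprd+/- over Ptprd+/+, with SE bars. The values run from -0.56 for Esrrg to 0.33 for Nr4a2, and coloured points mark the 4 members lower and the 2 higher in all Ptprd+/- libraries.

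The genomic span of a gene moved with its genotype difference, in the members and in the whole table. In this comparison, chosen after the values were seen, tested genes were divided into quartiles of span. The median log2 fold change was 0.08 in the shortest quartile, 0.04 and -0.03 in the next, and -0.09 in the longest, which began at 51111 bases. Of the 33 tested members 17 lay in the longest quartile, and 13 of these (76.5%) had a log2 fold change below 0, where 68.2% of all tested genes of that quartile did. The median of the 17 members was -0.14. The 4 coregulators were among the 17, and so were the 4 steroid and estrogen-related receptors below 0. The other 16 members numbered 5, 5 and 6 in the remaining quartiles, from the shortest up. Of these 16 members 3 (18.8%) lay below 0, where 50.8% of all tested genes and 36.3% of the shortest quartile alone did. Without Het 1 or without Het 2 it was 5 of the 16 (31.2%), where 44.2% and 35.8% of the shortest quartile did. The share over all genes outside the longest quartile, which would be the like background for these 16, was not taken. Esrrg, Esr1, Nr3c2, Thrb and Rarb span 606, 394, 346, 378 and 388 kb, while Nr1h2 spans 4.34 kb. The longest quartile of all tested genes stood lowest in Het 1, at a median deviation of -0.14, with 0.02 and -0.00 in Het 2 and Het 3 and 0.07, 0.06 and 0.03 in WT 1, WT 2 and WT 3. Without Het 1 its median log2 fold change was -0.06, and that of the shortest quartile 0.03, while the members' medians were -0.17 in the longest quartile and 0.03 outside it. Quartiles of exon length went the same way, with medians of 0.05, 0.03, -0.01 and -0.08 over all tested genes, from shortest to longest. The members' medians there were -0.10 (1 member), 0.09, 0.04 and -0.20. Span and exon length were not told apart. The part of span, or of anything that goes with it, in the values of single members was not tested.

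**Figure D5:**
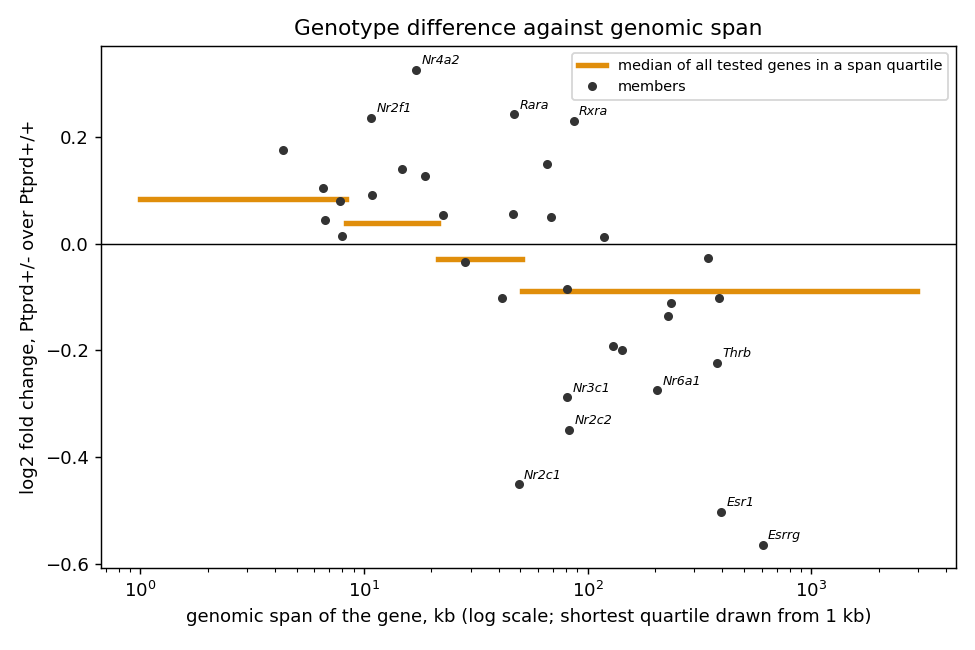
Log2 fold change of the 33 tested members, Ptprd+/- over Ptprd+/+, against genomic span in kb (log scale). Orange lines are the medians of all tested genes in each span quartile, at 0.08, 0.04, -0.03 and -0.09, and most members in the longest quartile lie below 0.

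Other genes of the system were taken from lists. Of 27 further coregulators, 20 had a log2 fold change below 0 and 7 above, with a median of -0.11. Over all tested genes 50.8% lay below 0, and 68.2% of those in the longest quartile of genomic span. The spans of the 27 were not compared. By edgeR 0 passed the adjusted threshold, and 2 had an unadjusted p under 0.05, both lower. Nrip1, the corepressor RIP140, had 10.4, 11.5 and 8.86 CPM in Het, against 15.9, 13.9 and 14.8 CPM in WT, 1.45-fold lower with an edgeR adjusted p of 0.617. Tbl1xr1, a subunit of the NCOR complexes, had 24.99, 27.7 and 22.9 CPM in Het, against 29.2, 31.1 and 32.1 CPM in WT. Neither gene overlapped between genotypes. Of the 27, 6 were lower without overlap, Crebbp, Ncoa6, Ncoa7 and Sirt1 being the others, and 0 were higher without overlap, against 6.72% and 7.15% of all tested genes. Hdac3, the deacetylase of the NCOR complexes, had a log2 fold change of -0.08. Without Het 2 and Het 3 the count below 0 was 17 of 27.

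Of 10 further receptors tested 6 had a log2 fold change below 0, with a median of -0.06. Nr1d1, whose values stand above, was higher in Het 2 and Het 3 than in the other libraries. Ppara, which encodes the fasting receptor PPAR alpha, had 80.6, 203 and 139 CPM in Het, against 132, 154 and 168 CPM in WT. Nr1h4, the bile acid receptor FXR, had 145, 159 and 157 CPM in Het, against 136, 160 and 172 CPM in WT. Both overlapped.

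Target genes were looked at beside their receptors, and by edgeR 0 genes of any target list passed the adjusted threshold, while DESeq2 called Pdk4 and Junb. A gene had an unadjusted edgeR p under 0.05 in 7.15% of the whole table. Of 12 LXR targets 10 had a log2 fold change below 0, with a median of -0.21, and 2 had an unadjusted p under 0.05. Nr1h3 and Nr1h2 themselves had log2 fold changes above 0. Pltp, which encodes a phospholipid transfer protein, had 57.5, 83.1 and 68.1 CPM in Het, against 275, 73.8 and 176 CPM in WT, so WT 2 lay within the Het range. Scd1, the stearoyl-CoA desaturase gene, had 1382, 3248 and 3714 CPM in Het, against 21540, 3886 and 8320 CPM in WT, with WT 1 far above the rest. Of 17 CAR and PXR targets 14 lay below 0, with a median of -0.13, and 4 had an unadjusted p under 0.05, all lower. Cyp2b10, the classical CAR target, had 16.5, 10.5 and 8.06 CPM in Het, against 47.8, 45.1 and 17.9 CPM in WT, with WT 3 just above Het 1. Sult1d1, a sulfotransferase gene, had 79.4, 106 and 84.4 CPM in Het, against 196, 126 and 126 CPM in WT, while Nr1i3 and Nr1i2 differed by less than the spread between libraries. Without WT 1 the median of the CAR and PXR list was -0.09.

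Targets of the other receptors were divided. Of 15 glucocorticoid receptor targets 10 lay below 0, with a median of -0.13 and 1 at an unadjusted p under 0.05, which was G6pc, glucose-6-phosphatase, at 427, 316 and 217 CPM in Het, against 507, 563 and 458 CPM in WT. Zbtb16, a glucocorticoid-induced zinc finger gene, overlapped, with a log2 fold change of -0.95 (SE 0.51). Of 16 HNF4A targets 9 lay below 0, with 3 lower and 1 higher at an unadjusted p under 0.05. Among the lower were G6pc, which is on this list too, and F9, coagulation factor IX. F9 had 219, 235 and 229 CPM in Het, against 276, 264 and 261 CPM in WT. Of 11 thyroid hormone targets 6 lay below 0. Me1, malic enzyme, had 63.8, 117 and 137 CPM in Het, against 227, 146 and 204 CPM in WT, and Hr, a corepressor gene, had 1.04, 0.660 and 0.483 CPM in Het, against 1.48, 1.56 and 1.20 CPM in WT. Of 10 retinoic acid targets 4 lay below 0, and 0 had an unadjusted p under 0.05, with log2 fold changes of 0.16 for Tgm2 and 0.09 for Rbp4. Of 12 targets of the estrogen-related receptors 7 lay below 0, with Idh3a, a citric acid cycle subunit, at 32.7, 31.8 and 34.04 CPM in Het, against 39.3, 40.6 and 40.5 CPM in WT. Pdk4, which encodes a kinase that shuts off pyruvate dehydrogenase, is on that list and on the PPARG and PPARD list, and had 6.20, 6.24 and 2.94 CPM in Het, against 13.5, 31.9 and 16.5 CPM in WT, with a DESeq2 adjusted p of 9.94e-06 and an edgeR adjusted p of 0.504. Of 11 PPARG and PPARD targets 8 lay below 0. Of 8 estrogen receptor targets 4 lay below 0, Nrip1 among them, and Socs2 varied widely in both genotypes. Of 9 targets of FXR and LRH-1 6 lay below 0, with Cyp7a1, the rate-limiting enzyme of bile acid synthesis, at 96.3, 166 and 139 CPM in Het, against 235, 144 and 221 CPM in WT. Slc51b, a bile acid exporter subunit, was at or under 1.22 CPM in every library. Of 11 immediate early genes listed beside the NR4A receptors 5 lay below 0. Junb, an AP-1 subunit, had 13.4, 19.1 and 17.4 CPM in Het, against 7.90, 11.18 and 8.94 CPM in WT, with a DESeq2 adjusted p of 0.0128 and an edgeR adjusted p of 0.531, and Ier2 overlapped.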

How the data were processed

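The authors deposited raw read counts per Ensembl gene, whole numbers in 1 column per library, marked raw per the file headers. Per the submitters' processing notes, HTSeq 0.6.1p1 and STAR 2.5.3a were among the tools and mm10 was the build; DESeq2 1.16.1, cutadapt 1.10 and bcl2fastq 2.17.1.14 are also listed. The sources used here do not give the annotation, the strand setting or how multiply mapped reads were treated. The authors' own comparison was not used here.

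Low genes were removed with filterByExpr, leaving 14606 genes, and libraries were scaled by TMM. Het was compared with WT by the two-sided quasi-likelihood test of edgeR 4.0.16 in R 4.3.3. P-values were adjusted by the Benjamini-Hochberg method across the 14606 genes, with significance set at 0.05. CPM use the effective library size, and exon lengths are unions of GENCODE vM21 exons. DESeq2 1.42.0, limma 3.58.1, other filters and scaling, a replicate block, a clock score covariate and leaving out libraries were alternatives. The fits were also run on simulated data, and the outcome is not reported here.

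The members, lists and rules were chosen with earlier results of these data known. Library values are given for the 12 members of smallest p, those without overlap and 10 set members. They are also given for the 2 genes of smallest p per receptor, coregulator and target list. Marker lists are given as sums, with Ighm beside the lymphocyte sum. Nr5a2, Pparg, Ppard, Rxrg, Thra, Crebbp, Ncoa6, Ncoa7, Sirt1, Hdac3, Ppara, Nr1h4 and Ighm were named after their values were seen. Some results are not reported here.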

Additional observations from a re-analysis of the deposited data

How the results depend on the processing

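No member passed the adjusted threshold in any of the 14 alternative settings. Over all tested genes 64 passed with DESeq2, 73 with no filter and 0 to 1 when 1 library was left out (1 without Het 2). Members at an unadjusted p under 0.05 numbered 5 with no filter and 5 with the replicate block (15.2% each, against 5.94% and 7.55% of all genes in those fits), all lower in Het, then 9 with the clock score (6 lower), 11 without both Het 2 and Het 3 (7 lower), and 1 to 6 (1 to 6 lower) with 1 library left out, the highest without Het 2 (18.2%, against 9.60% of all tested genes). The replicate numbers were not taken as pairs. Same-numbered libraries had deviations correlated at -0.068, 0.116 and 0.152, and differently numbered ones at -0.298 to 0.175. Such correlations cannot show whether the samples were paired by design. The members' median log2 fold change was -0.0513 with the clock score, -0.0665 without both Het 2 and Het 3, and -0.0617 (without Het 2) to -0.000279 with 1 library left out. Members without overlap numbered 22 without both Het 2 and Het 3 (66.7%, against 63% of all tested genes), and 7 to 13 with 1 library left out, the highest without Het 2 (39.4%, against 27.7%) and the lowest without WT 1 (21.2%, against 21.9%); fewer libraries overlap less by construction. Some fold changes turned sign, most of them near 0 but also that of Nr4a2 (0.33 with all libraries), and the cause was not tested. With the clock score and without both Het 2 and Het 3 they were -0.035 and -0.052 for Nr1i3, -0.045 and -0.081 for Nr2f2, -0.058 and -0.24 for Nr4a2, -0.27 and -0.37 for Nr5a2, 0.12 and 0.22 for Rxrg, 0.12 and 0.20 for Thra, and -0.052 and -0.13 for Esrra, with 0.023 for Rarb without both. With limma-voom they were -0.059 for Nr4a1, -0.0011 for Nr5a2 and -0.032 for Ppard, and with the replicate block -0.00036 for Nr4a1. With 1 library left out they ran from -0.024 to 0.14 for Nr1i2, -0.050 to 0.12 for Nr1i3, -0.041 to 0.25 for Nr2f2, -0.096 to 0.20 for Nr2f6, -0.18 to 0.14 for Nr3c2, -0.19 to 0.22 for Nr4a1, -0.045 to 0.51 for Nr4a2, -0.096 to 0.17 for Nr5a2, -0.069 to 0.17 for Rarg, -0.29 to 0.15 for Rxrg, -0.17 to 0.038 for Thra, -0.29 to 0.21 for Ppard and -0.29 to 0.034 for Ncoa2. Counts of 1 to 4 reads limit Vdr, and 12 to 34 reads Nr4a2.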
